A study of Homo sapiens with 12 samples.

Results

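CCN1 (formerly CYR61) and CCN2 (formerly CTGF) are the 2 genes described here. They were chosen by name as tension-responsive members of the CCN family, and each is read by 1 of the 8170 probes on the array, probe 1514989 for CCN1 and probe 1674454 for CCN2, among 5499 named genes. In GRCh38.p14, CCN1 spans chromosome 1 from 85580761 to 85583950, and CCN2 spans chromosome 6 from 131948176 to 131951372 on the minus strand. The position of each probe within its transcript is not given in the sources used here.

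RNA came from H460, a human lung cancer line with wild-type p53, kept for 24 h with 1 drug and set against RNA of untreated H460 on the same two-channel array. The antimetabolites 5-fluorouracil (5-FU) and cytarabine were used at 1 and 0.2 µM, the platinum compound cisplatin at 5 µM, and the cytoskeletal drugs paclitaxel and cytochalasin D at 5 nM and 0.2 µM. Every drug thus had a single dose, and the doses differ. There were 12 arrays: 4 for 5-FU, taken as 2 replicates with treated RNA in channel 2 and again in channel 1, and 2 for each other drug with treated RNA in channel 1. Whether replicates were separate cultures, and whether drugs shared untreated RNA, is not in the labels, so p-values measure the spread between these arrays, which may be technical. H460 is 1 cell line, and a ratio gives no level, so epithelial identity could not be read from these data.

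CCN proteins are secreted, cysteine-rich proteins of the extracellular matrix. They signal by binding integrins and heparan sulfate proteoglycans rather than by building the matrix, and they are known for roles in adhesion, migration, angiogenesis and fibrosis. Transcription of CCN1 and CCN2 is known to follow actin tension and cell shape through the co-activators YAP and TAZ with TEAD factors, and through MRTF with SRF, and CCN2 is also a target of TGF-beta through SMADs. Of the drugs, cytochalasin D caps growing actin filaments, paclitaxel stabilises microtubules, and 5-FU, cytarabine and cisplatin act on nucleotide synthesis or DNA.

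The 250 bases before the transcription start of CCN2, chr6:131951373-131951622 (minus strand) in RefSeq on GRCh38.p14, are shown because CCN2 had the lowest fitted ratio of both genes in cytochalasin D. The sources used here held no such window for CCN1 or for the actin gene ACTB. The same windows of the actin genes ACTG1, chr17:81512800-81513049 (minus strand), and ACTG2, chr2:73892758-73893007 (plus strand), are shown because these genes moved the other way in that drug. Capitals mark the TEAD motif GGAATG in CCN2 and the CArG box, the SRF motif, in the actin genes.
CCN2: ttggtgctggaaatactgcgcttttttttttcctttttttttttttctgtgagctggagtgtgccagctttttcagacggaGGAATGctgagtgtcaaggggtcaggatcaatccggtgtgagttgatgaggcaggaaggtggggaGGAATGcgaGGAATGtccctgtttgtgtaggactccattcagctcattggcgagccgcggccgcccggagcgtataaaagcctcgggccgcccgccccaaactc
ACTG1: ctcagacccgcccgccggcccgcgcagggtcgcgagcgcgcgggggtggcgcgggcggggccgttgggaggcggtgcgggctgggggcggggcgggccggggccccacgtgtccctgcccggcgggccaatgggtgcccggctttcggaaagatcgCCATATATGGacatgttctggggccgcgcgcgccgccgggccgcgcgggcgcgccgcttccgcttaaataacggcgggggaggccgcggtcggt
ACTG2: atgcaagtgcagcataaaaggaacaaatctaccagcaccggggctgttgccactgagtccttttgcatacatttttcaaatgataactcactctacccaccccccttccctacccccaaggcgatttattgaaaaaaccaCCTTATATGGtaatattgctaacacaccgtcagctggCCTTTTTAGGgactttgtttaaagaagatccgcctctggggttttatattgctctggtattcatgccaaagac
Searched on both strands, CCN2 held GGAATG 3 times, starting 169, 104 and 95 bases before the start site, TATAAA once at 32 bases and the SMAD motif CAGAC once at 177 bases. GGAATG occurred at least once in 11.9% of 27305 promoter windows of this length and at least 3 times in 26 of them (0.0952%). CAGAC occurred at least once in 37.8% of these windows and TATAAA in 11.1%. No CArG box was found in the CCN2 window. ACTG1 held 1 CArG box, 94 bases before its start, and ACTG2 held 2, at 110 and 73 bases, against 1.14% of all windows with at least 1. Neither actin window held GGAATG. Windows of other genes described below were searched too. Those of TAGLN2, a listed SRF target that fell in cytochalasin D, held no CArG box. Those of IGFBP3, BRAP and STC2, which were also lower there, held no GGAATG, and 1 EDN1 window held it at 129 bases. These are matches of letters and do not show that a factor bound there.

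Each value below is the log2 of treated over untreated signal on an array, centred on the array's median, which sets a gene against the bulk of features measured beside it; fewer expressing cells and less RNA per cell cannot be told apart. The numerator and the log base of the deposited ratios are not stated. The ratios were read as channel 1 over channel 2, because that sign makes the p53 targets MDM2 and CDKN1A higher in 5-FU (means of 1.49 and 2.51), with 11 of 14 p53 targets above 0. MDM2, with values of 2.75 and 2.57 in cisplatin as deposited, had the same sign there without being used to set it. Arrays of 5-FU carried 21.5 to 46.7% missing values and the others 6.44 to 14.5%. Spot intensities were not used here, so signal over background is unknown. Across features, turned arrays of different drugs among the 4 hybridised in 1 orientation correlated at 0.361 to 0.732, against 0.719 to 0.821 for arrays of the same drug. 5-FU arrays correlated with those of another drug at 0.039 to 0.19. What these 4 drugs share through the channel and through the cells cannot be told apart.

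CCN2 was far below untreated in cytochalasin D, 5-FU and cisplatin, and near untreated in cytarabine and paclitaxel. In cytochalasin D the arrays read −1.94 and −1.96, the 18th lowest of 7131 features on one and the 7th lowest of 7163 on the other. In 5-FU they read −1.23 and −1.17 with treated RNA in channel 2, and −1.43 and −1.53 with it in channel 1. In cisplatin they read −1.23 and −1.28. All 8 of these arrays lie below every cytarabine array (−0.01 and −0.11) and every paclitaxel array (−0.25 and −0.42).

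CCN1 followed another order. In cytochalasin D it was low on both arrays (−1.39 and −1.46, the 70th lowest of 7131 and the 74th lowest of 7163 features). In cisplatin, where CCN2 was low, CCN1 was high (0.59 and 0.63, the 211th highest of 7279 and the 199th highest of 7199). Cytarabine gave 0.11 and 0.16, and paclitaxel −0.25 and −0.22. The 4 drugs do not overlap with one another; the gap between the arrays of a drug was smaller than the gap to the next drug.

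CCN1 in 5-FU could not be settled. Its 3 values were 0.48 with treated RNA in channel 2, and −0.14 and −1.72 with it in channel 1, and the second channel 2 array had no value. The 2 arrays of the same orientation therefore disagreed by more than any drug's pair did. On the array at −1.72, CCN1 was the 26th lowest of 5524 features, and CCN2 on the same array read −1.53, close to its other 5-FU arrays. The fit needs both orientations of a replicate, so it used replicate 1 alone and left the −1.72 array out.

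**Figure D1:**
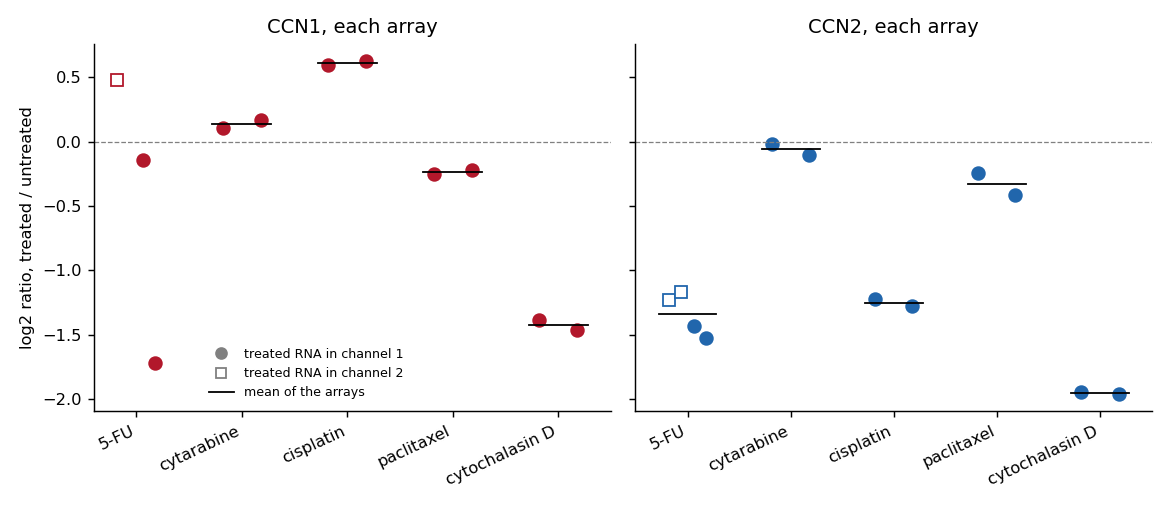
Log2 ratio of treated over untreated signal (vertical axis) for CCN1 and CCN2 on each array by drug; filled circles have treated RNA in channel 1, open squares in channel 2, and lines are means of the arrays (none for CCN1 in 5-FU). CCN2 is near −1.2 to −1.5 in 5-FU and cisplatin where CCN1 in cisplatin is near 0.6, and the 3 CCN1 values in 5-FU run from −1.72 to 0.48.

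Against untreated RNA, the limma fit with a channel term called CCN2 lower in cytochalasin D, 5-FU and cisplatin (adjusted p under 0.05 over all features of the comparison). In cytochalasin D it fell to −1.81 ± 0.07 (SE, 2 replicates; 3.52-fold lower; adjusted p = 6.5e-05), where 6.45% of features were called lower. In 5-FU it was −1.34 ± 0.06 (2.53-fold lower; adjusted p = 1.2e-05), where 12% were called lower and 5.43% higher. In cisplatin it was −1.11 ± 0.07 (2.16-fold lower; adjusted p = 0.00026), where 7.68% were called lower. In paclitaxel CCN2 was −0.19 ± 0.07 (adjusted p = 0.147; 2.6% of features called higher and 3.97% lower), and in cytarabine 0.08 ± 0.07 (adjusted p = 0.456; 11.1% higher and 11% lower). With the 5-FU arrays and the channel term left out, CCN2 in paclitaxel passed at −0.33 (adjusted p = 0.0221), so that call depends on the channel estimate.

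The same fit called CCN1 lower in cytochalasin D, at −1.11 ± 0.08 (SE, 2 replicates; 2.16-fold lower; adjusted p = 0.0012). It called CCN1 higher in cisplatin, at 0.92 ± 0.08 (1.90-fold higher; adjusted p = 0.0010; 8.55% of features called higher there and 4.46% in cytochalasin D). In cytarabine the fitted ratio was 0.45 ± 0.08 (adjusted p = 0.0097), in paclitaxel 0.08 ± 0.08 (adjusted p = 0.568), and in 5-FU 0.17 ± 0.08 from 1 replicate (adjusted p = 0.207). The channel effect behind these values is −0.31 for CCN1 from 1 pair of 5-FU arrays, and −0.10 and −0.18 for CCN2 from 2 pairs. It was measured on 5-FU arrays alone and is taken to hold on the arrays of the other drugs, which was not tested. The errors given here do not take in that step. The channel effect moves all 4 drugs of 1 orientation by the same amount and leaves their order as measured.

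Without the 5-FU arrays and the channel term, CCN1 was 0.61 in cisplatin (adjusted p = 0.0011) and −1.42 in cytochalasin D (adjusted p = 0.00013). Cytarabine lost its call there (0.14, adjusted p = 0.103) and also without its second replicate (0.42, adjusted p = 0.0570). Paclitaxel read −0.24 there, below untreated (adjusted p = 0.0386), so its direction was not settled. Fits that take in the array at −1.72 widen the CCN1 error: with all drugs and no channel term, cisplatin and cytarabine lost their calls (adjusted p = 0.283 and 0.803), and counting all 12 arrays as separate observations ended the cytochalasin D call too (−0.72, adjusted p = 0.306).

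**Figure D2:**
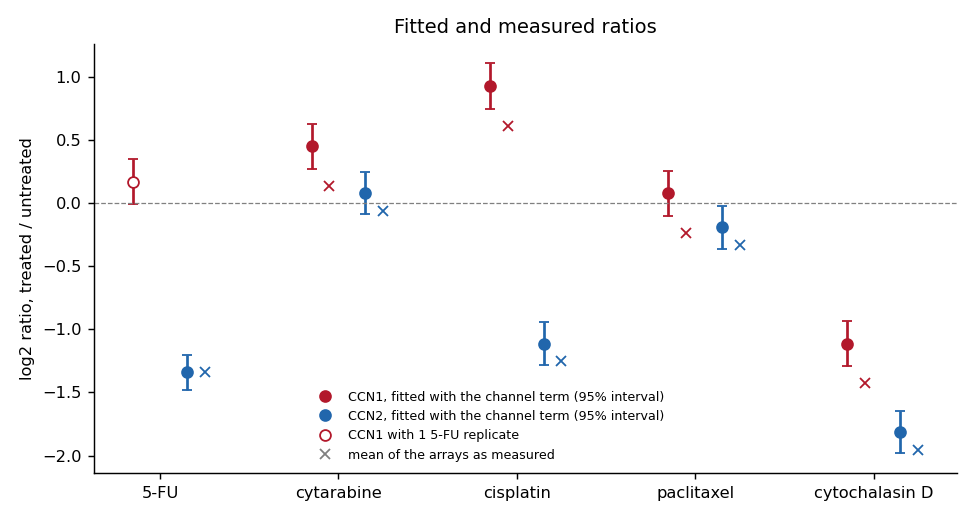
Fitted log2 ratio with its 95% interval (circles; open for the 1-replicate value of CCN1 in 5-FU) and mean of the arrays as measured (crosses) for CCN1 and CCN2 by drug. The fitted CCN1 values lie 0.31 above the measured ones in the 4 drugs of 1 orientation, and both sets put CCN1 above 0 in cisplatin and below 0 in cytochalasin D.

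Differences between drugs were tested for all 10 pairs, and among the 4 drugs of 1 orientation the channel effect cancels. CCN1 in cisplatin was above CCN1 in cytochalasin D by 2.04 ± 0.08 (4.10-fold; adjusted p = 0.00012; 7.83% of features differed), above paclitaxel by 0.85 (adjusted p = 0.0031; 5.75%) and above cytarabine by 0.48 ± 0.08, coded as cytarabine minus cisplatin of −0.48 (adjusted p = 0.0092; 21.8%). CCN2 had the opposite order for cisplatin: it was below paclitaxel, at a difference of −0.92 ± 0.08 (adjusted p = 0.0019), and below cytarabine, with cytarabine higher by 1.19 (adjusted p = 0.00064). CCN2 in cisplatin was nevertheless above cytochalasin D, by 0.70 (adjusted p = 0.0039). The CCN1 calls rest on a fit without the 5-FU array at −1.72: in the fit with no channel term, which takes it in, none of these 3 CCN1 differences passed (adjusted p = 0.0544 to 0.524). The pair of genes therefore ranked cisplatin differently: highest of the 4 drugs for CCN1, and second lowest for CCN2.

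Both genes separated cytochalasin D from the other drugs of 1 orientation. Against paclitaxel, the other cytoskeletal drug, 15 of 7169 features differed (0.209%), and both genes were among them. CCN2 was higher in paclitaxel by 1.62 ± 0.08 and ranked 1st of all features by the size of its moderated statistic (adjusted p = 0.00065). CCN1 was higher by 1.19 ± 0.08 and ranked 3rd (adjusted p = 0.0039; the call ended without paclitaxel replicate 1, at 1.21). Against cytarabine they ranked 1st and 2nd, with differences of 1.89 for CCN2 (adjusted p = 0.00020) and 1.56 for CCN1 (adjusted p = 0.0010), and 3.33% of features differed. With only the compared drugs in the fit, all 4 of these calls ended (adjusted p = 0.0699 to 0.0832). The CCN1 calls also ended with no channel term (adjusted p = 0.133 against cytarabine and 0.455 against paclitaxel) and with every array separate (0.105 and 0.405). Between cytarabine and paclitaxel no feature passed with limma (0%; 1265 at unadjusted p under 0.05). There CCN1 differed by 0.37 (95% interval 0.19 to 0.55, adjusted p = 0.102) and CCN2 by 0.27 (0.08 to 0.47, adjusted p = 0.175).

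For 5-FU the pairs need the channel term. CCN2 in 5-FU was below cytarabine by −1.42 ± 0.09 (adjusted p = 0.00019; 19.1% of features differed) and below paclitaxel by −1.15 ± 0.09 (adjusted p = 0.00054; 11.9%). It was above cytochalasin D by 0.47 ± 0.09 (adjusted p = 0.0155; 12.8%), a call that ended without any 1 of the 5-FU or cytochalasin D replicates (0.43 to 0.52, adjusted p = 0.0538 to 0.109). Its difference from cisplatin did not pass (−0.23, 95% interval −0.44 to −0.01, adjusted p = 0.163; 15% of features differed). From low to high, CCN2 thus ran cytochalasin D, 5-FU, cisplatin, paclitaxel, cytarabine, and the neighbouring pairs whose difference missed the adjusted threshold were 5-FU with cisplatin and paclitaxel with cytarabine. Both intervals lie to one side of 0; the 5-FU arrays span those of cisplatin, and the paclitaxel arrays all lie below those of cytarabine. CCN1 ran cytochalasin D, paclitaxel, cytarabine, cisplatin, and no arrays of these drugs overlap. Only the step from paclitaxel to cytarabine missed the adjusted threshold, in a pair of drugs where no feature passed. The 5-FU pairs of CCN1 rest on 1 replicate and are given no place in the order.

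**Figure D3:**
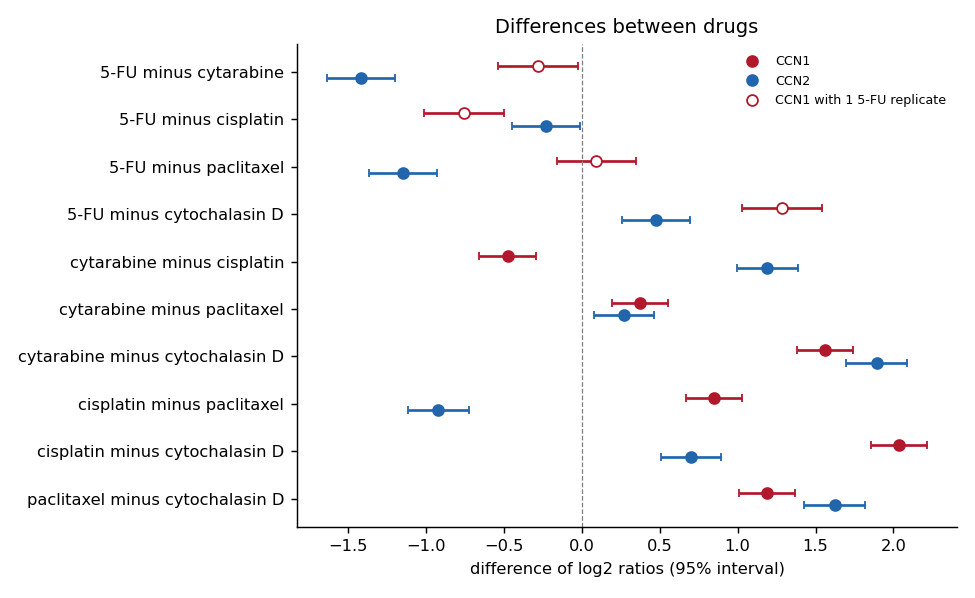
Difference of log2 ratios between drugs (horizontal axis, with 95% intervals) for CCN1 and CCN2 in all 10 pairs; open circles are CCN1 pairs with the 1 5-FU replicate. Pairs with cisplatin put the 2 genes on opposite sides of 0 against cytarabine (−0.48 and 1.19) and paclitaxel (0.85 and −0.92), and pairs with cytochalasin D put both on the same side.

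On the same array, CCN1 minus CCN2 was 1.82 and 1.91 in cisplatin, 0.56 and 0.50 in cytochalasin D, 0.12 and 0.27 in cytarabine, and −0.01 and 0.20 in paclitaxel. The cisplatin arrays stand apart from those of the other 3 drugs of this orientation. In 5-FU the difference was 1.71, 1.29 and −0.20, the last on the array where CCN1 read −1.72. These differences have no test and carry the channel effects of both probes. Over the 9 replicates with both genes, their ratios correlated at 0.51 (Spearman's rho 0.25), and at −0.68 over the 7 without cytochalasin D; replicates of a drug are not independent points, so this only describes the arrays.

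The other CCN genes on the array, CCN3, CCN4 and CCN5, gave no call in any drug in the limma fit with the channel term (at unadjusted p under 0.05, 2 of 3 in cisplatin, 1 in paclitaxel, 1 of 2 tested in cytarabine, and 0 in 5-FU and cytochalasin D). Of all features, 1696 of 4936 lay at that level in cisplatin, 1281 of 4915 in paclitaxel and 1823 of 4828 in cytarabine. In 5-FU 1420 of 5043 lay there, and in cytochalasin D 1413 of 4915. Without the channel term CCN3 was called higher in 5-FU (0.59, adjusted p = 0.0410), from arrays at 0.12, 0.23 and 1.01. That fit called 441 of 6352 features higher there. CCN5, which lacks the C-terminal domain of the others, read −0.03 and −0.10 in cytochalasin D. CCN3, often described as opposing CCN2, read −0.12 and −0.16 there and −0.27 and −0.18 in cisplatin. CCN4, also called WISP1, had a value on 1 of the 2 cytochalasin D arrays (−1.11), which the fit put at −1.30 with no call (adjusted p = 0.216), and it read −1.57 and −0.47 in paclitaxel. On that cytochalasin D array CCN1 read −1.39, lower than CCN4.

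Among other genes known as YAP/TAZ and TEAD targets, 12 of 24 listed were on the array and 8 could be tested. In cytochalasin D 0 rose and 2 fell, where 4.46% of all features were called higher and 6.45% lower, and the median over the 8 was −0.0664 against 0.0197 over all features tested. EDN1, the vasoconstrictor peptide endothelin-1, read −0.69 and −0.36 there and fell by 0.63 ± 0.11 (SE) in the fit (adjusted p = 0.0168, or 0.116 without cytochalasin D replicate 1). In cisplatin EDN1 read 0.57 and 0.70 and rose by 0.53 (adjusted p = 0.0207; the call ended without either cisplatin replicate, at 0.60 and 0.46, or without 5-FU replicate 2, at 0.50). EDN1 thus had the signs of CCN1 in both drugs, and its own difference between cisplatin and cytochalasin D was 1.16 ± 0.13 (adjusted p = 0.0033). In cytarabine EDN1 fell by 0.56 (adjusted p = 0.0145, lost without either cytarabine replicate, −0.59 and −0.54), where CCN1 did not fall.

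IGFBP3, which binds insulin-like growth factors, was called lower in all 5 drugs. Its fitted ratios ran from −0.63 in cytarabine to −0.29 in cisplatin, and the calls in the other 4 drugs ended without at least 1 replicate, with values down to −0.13 in cisplatin without 5-FU replicate 1. AXL, a receptor tyrosine kinase, read −0.03 and 0.10 in cytochalasin D, and AXL, AJUBA, ASAP1, DOCK5, ARHGEF17 and PTPN14 had no call in any drug. In the other drugs the list gave 1 call in 5-FU and 1 in paclitaxel, both IGFBP3, 2 in cytarabine and 2 in cisplatin. The fall of CCN1 and CCN2 in cytochalasin D was thus not matched in size by any of the 8 tested. Without the channel term 12 were tested in cytochalasin D. There limma called NT5E higher (0.44, adjusted p = 0.0203), from arrays at 0.42 and 0.47. EDN1 and IGFBP3 stayed lower, with 171 of all 7233 features called higher and 622 lower. That fit also called DKK1 higher in cisplatin (0.29, with 477 of 7287 features called higher). In cytarabine it called CCDC80 and TGFB2 lower (−0.68 and −0.99, with 1073 of 7002 called lower). DKK1 in 5-FU had 1 value, at 0.98.

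Genes known as MRTF and SRF targets went the other way in cytochalasin D for the actins. Of 30 listed, 18 were on the array and 13 were tested in this drug; 3 rose and 1 fell, against 4.46% of all features called higher and 6.45% lower, with a median of 0.0316. ACTG1, cytoplasmic gamma-actin, read 0.94 and 0.82 in cytochalasin D and between −0.82 and −0.12 on all other arrays, so the groups do not overlap. It rose by 1.04 ± 0.07 (SE; adjusted p = 0.00053). ACTG2, smooth muscle gamma-actin, read 0.43 and 0.74 and rose by 1.11 ± 0.16 (adjusted p = 0.0076, or 0.0599 without cytochalasin D replicate 2). The mean of its arrays was 0.59, and the actin genes are near-identical in coding sequence, so their probes may share signal. ACTB, cytoplasmic beta-actin, read 0.17 and 0.31 and rose by 0.47 ± 0.08 (adjusted p = 0.0113), a call that ended without a channel term (0.24, adjusted p = 0.0536), without 5-FU replicate 1 (0.37) or without cytochalasin D replicate 2 (0.40).

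The list did not move as one. TAGLN2, an actin-binding protein of the transgelin family, fell by 0.44 (adjusted p = 0.0244, lost without either 5-FU or either cytochalasin D replicate, −0.46 to −0.41), and TAGLN read −0.21 and −0.14 with no call. The actinin gene ACTN1 read −0.37 and −0.39 there with no call. The limma fit without the channel term called ACTN1 lower in cytochalasin D (−0.38, adjusted p = 0.0301), with 622 of all 7233 features. CNN1, a calponin gene with no 5-FU value, read −1.17 and −0.47. SRF itself lacked the values the channel term needs; it read −0.17 and 0.24 in cytochalasin D and 0.45 and 0.57 in cisplatin. EGR1, an immediate early gene with SRF sites, read 0.72 and 0.88 in cisplatin and −0.23 and −0.06 in cytochalasin D, a difference of 0.95 ± 0.10 (adjusted p = 0.0041) in the direction of CCN1. In 5-FU, where 12% of all features were called lower and 5.43% higher, 4 of 14 tested fell and 0 rose: ACTG1 by 0.62, MYH9 (non-muscle myosin heavy chain) by 0.56, ACTB by 0.39 and ACTN1 (alpha-actinin) by 0.36. The calls of ACTB and ACTN1 in 5-FU ended without 5-FU replicate 1 (−0.34 and −0.23). In cytarabine, where 11.1% were called higher, 3 of 13 rose. ACTN1 and CNN2 (calponin) lost their calls only without cytarabine replicate 2 (0.48 and 0.40), and ZYX (zyxin) lost its call in 7 of 10 fits with a replicate left out (0.22 to 0.77). In cisplatin and paclitaxel 0 of 13 passed with limma (3 and 2 at unadjusted p under 0.05), against 8.55% and 2.6% of features called higher and 7.68% and 3.97% lower. Of all features, 1696 of 4936 and 1281 of 4915 lay at that unadjusted level.

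**Figure D4:**
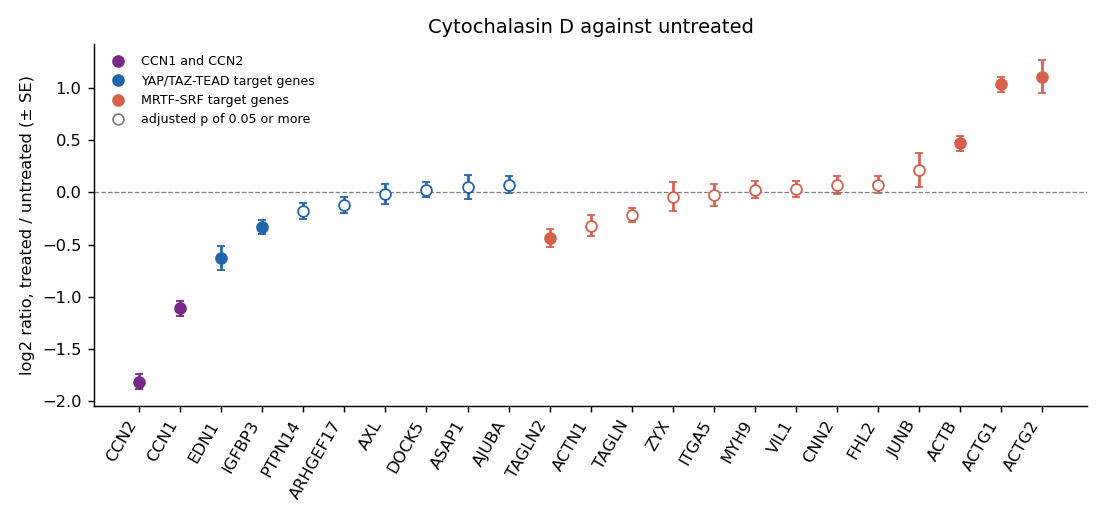
Fitted log2 ratio in cytochalasin D (± SE, 2 replicates) for CCN1, CCN2 and the tested genes of the TEAD and SRF target lists; open circles did not pass. CCN2 (−1.81) and CCN1 (−1.11) lie below all listed genes, and ACTG1 (1.04) and ACTG2 (1.11) lie highest.

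CCN2 is also a target of TGF-beta, and the other such targets called in 5-FU and in cisplatin moved in both directions. Of 10 such targets on the array, 6 were tested in each drug. Their median was −0.171 in 5-FU, against 0.00788 over all features tested. It was 0.142 against 0.0145 in cisplatin, and −0.0551 against 0.0197 in cytochalasin D. Of all features, 5.43% were called higher and 12% lower in 5-FU, and 8.55% and 7.68% in cisplatin. These shares were 4.46% and 6.45% in cytochalasin D, 2.6% and 3.97% in paclitaxel, and 11.1% and 11% in cytarabine. In 5-FU 1 rose (ID1, a transcription inhibitor, 0.61) and 3 fell: FN1 (fibronectin) by 0.91, TGFBI by 0.61 and TGIF1 by 0.42, the last lost without 5-FU replicate 1 (−0.25). In cisplatin KLF10, a TGF-beta-inducible repressor, read 1.42 and 1.30 and rose by 1.45 ± 0.18 (adjusted p = 0.0027), while FN1 fell by 0.52 (adjusted p = 0.0060). In cytochalasin D and paclitaxel 0 of 6 passed (2 and 2 at unadjusted p under 0.05), and in cytarabine FN1 and PMEPA1 fell by 0.28 and 0.23, calls that ended in most fits with a replicate left out. At that unadjusted level lay 1413 of 4915 features in cytochalasin D and 1281 of 4915 in paclitaxel. The limma fit without the channel term called FN1 lower in all 5 drugs, with −0.33 in cytochalasin D (adjusted p = 0.0184) and −0.36 in paclitaxel (adjusted p = 0.0151). It also called ID1 lower in cisplatin and TGFBI lower in cytarabine. Of all features it called lower 881 of 6352 in 5-FU, 1073 of 7002 in cytarabine and 654 of 7287 in cisplatin. In paclitaxel it called lower 562 of 7230 and in cytochalasin D 622 of 7233. The receptor TGFBR2 fell in the 4 drugs of 1 orientation, by 1.31 in cytarabine, 0.86 in cisplatin, 1.36 in paclitaxel and 1.12 in cytochalasin D. No pair of these drugs passed for TGFBR2 (adjusted p = 0.0631 to 0.879), the cisplatin call ended without cisplatin replicate 2 (−0.76), and its channel effect came from 1 pair of 5-FU arrays. SMAD2 also fell in cytarabine (arrays at −0.44 and −0.27), a call lost without cytarabine replicate 1. The ligand gene TGFB2 was untested with the channel term and read −1.41 and −0.56 in cytarabine. The receptor TGFBR1, also untested there, read 0.80 and 0.84 in cisplatin. Without that term limma called it higher in cisplatin (0.82, adjusted p = 0.0110) and lower in cytarabine (−0.51, adjusted p = 0.0401). Its difference between cisplatin and cytochalasin D was 1.10 ± 0.20 (adjusted p = 0.0229).

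Of the receptors and co-receptors through which CCN proteins signal, 11 were on the array and 6 were tested. ITGB1, the integrin beta-1 chain, fell by 0.68 ± 0.09 in 5-FU (adjusted p = 0.0018), with arrays from −0.95 to −0.51. It was the only one of the 6 called in any drug by the fit with the channel term. In 5-FU 12% of all features were called lower and 5.43% higher. The other drugs had 3.97 to 11% called lower and 2.6 to 11.1% higher. Without the channel term ITGB1 was also called lower in cytarabine and cisplatin, ITGB2 higher in cisplatin and SDC4 higher in 5-FU. Of all features that fit called lower 1073 of 7002 in cytarabine and 654 of 7287 in cisplatin. It called higher 477 of 7287 in cisplatin and 441 of 6352 in 5-FU. In cytochalasin D ITGB1 read 0.10 and 0.14. ITGB3, the integrin beta-3 chain, had no 5-FU value and so no test with the channel term. It read −2.05 and −2.10 in cytarabine, −1.14 and −1.06 in cisplatin, −1.53 and −1.37 in paclitaxel, and −1.64 and −1.48 in cytochalasin D. The fit without the channel term called ITGB3 lower in these 4 drugs. In paclitaxel that fit called 562 of 7230 features lower and in cytochalasin D 622 of 7233. A channel effect shared by all these arrays cannot be told apart from a fall. Cisplatin was above cytarabine for ITGB3 by 0.97, coded as cytarabine minus cisplatin of −0.97 ± 0.10 (adjusted p = 0.0025).

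Of 28 listed regulators of actin and the Hippo pathway, 7 were tested. In cytochalasin D 0 of 7 tested passed (3 at unadjusted p under 0.05, as were 1413 of all 4915 features). In 5-FU 1 of 7 passed, in cytarabine 2 of 7, in cisplatin 2 of 7 and in paclitaxel 1 of 7. With 7 genes these counts lie near the shares of all features called, which were 4.46% higher and 6.45% lower in cytochalasin D and 11.1% and 11% in cytarabine. In 5-FU the shares were 5.43% and 12%, in cisplatin 8.55% and 7.68%, and in paclitaxel 2.6% and 3.97%. LIMK1, a kinase that inactivates cofilin, fell by 0.62 in cytarabine, 0.77 in cisplatin and 0.66 in paclitaxel (the last lost without either paclitaxel replicate, −0.67 to −0.65). TEAD1, a TEAD factor itself, fell by 0.33 in 5-FU, a call lost without either 5-FU replicate (−0.39 to −0.26). RHOC rose in cisplatin (arrays at 0.36 and 0.39), a call lost in 3 of 10 fits with a replicate left out (0.30 to 0.38). TEAD3 rose in cytarabine (arrays at 0.31 and 0.20), a call lost in 7 of 10 such fits (0.19 to 0.36). WWTR1, which encodes TAZ, lacked the values the channel term needs and read 0.19 and 0.17 in cytochalasin D. Of 8 other matricellular genes on the array, POSTN (periostin) alone was called, as 1 of 5 tested in cytarabine (0.51, lost in 8 of 10 fits with a replicate left out, 0.45 to 0.58). The 6 tested in each other drug gave 0 calls, and 1 at unadjusted p under 0.05, in paclitaxel, as were 1281 of all 4915 features there. These counts too stand beside the shares just given. Over all lists, 41 calls were made and 15 kept their call without each replicate in turn. By drug, 11 were in 5-FU, 12 in cytarabine, 7 in cisplatin, 3 in paclitaxel and 8 in cytochalasin D. The 8 in cytochalasin D came from 53 members tested, where 4.46% of all features were called higher and 6.45% lower.

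Epithelial and fibroblast markers were given as a check on other cells. Of 5 epithelial markers on the array 1 could be tested, KRT8, which fell by 0.30 in cytochalasin D (lost without either 5-FU or either cytochalasin D replicate, −0.34 to −0.26). Of 4 fibroblast markers only PDGFRB was tested with the channel term. It gave no call in any drug (1 at unadjusted p under 0.05, in cytochalasin D, where it read −0.09 and −0.08). In that drug 1413 of all 4915 features lay at that level. LUM (lumican) had no 5-FU value; it read 0.58 and 0.41 in cytochalasin D and was called higher there without the channel term (0.50, adjusted p = 0.0063), the only one of the 4 called. In that fit KRT18 was the 1 other epithelial call, lower in cisplatin. Over all features that fit called 171 of 7233 higher in cytochalasin D and 654 of 7287 lower in cisplatin. A ratio cannot show whether such cells were present, and their part in the CCN values was not tested.

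The genes whose pattern was most like CCN2, by Pearson correlation over the 10 replicates among 2452 named genes with all values, were led by BRAP at 0.98. BRAP encodes a BRCA1-associated protein. It read −1.56 and −1.55 in cytochalasin D, −0.94 and −0.95 in cisplatin, and −1.52 to −1.06 on the 5-FU arrays, and −0.12 to 0.11 in cytarabine and −0.20 and −0.10 in paclitaxel. In the fit it fell by 1.45 ± 0.10 in cytochalasin D (SE, 2 replicates; adjusted p = 0.00053). Its values are thus close to those of CCN2 in size as well as order. STC2, the secreted hormone stanniocalcin 2, was 4th at 0.92 with smaller values, −0.73 and −0.69 in cytochalasin D. RCBTB2, KLRC1 and PCDH20, which came 2nd, 3rd and 5th (0.92, 0.92 and 0.91), had ratios between −0.12 and 0.30 in all 5 drug means. The genes most opposed were COL11A2 (−0.96), FHDC1 (−0.93) and ABCC4 (−0.92).

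Over the 9 replicates with CCN1, among 2453 genes, TFAM, a mitochondrial transcription factor, reached 0.96, CNPY3 and PDE4D 0.95, KRT8 0.90 and GEMIN8 0.88. None of these approached CCN1 in size: the largest fall among them in cytochalasin D was a mean of −0.42 for TFAM, against −1.42 for CCN1. ZCCHC14 (−0.93), GAS7 (−0.91) and ETV1 (−0.91) were most opposed, and all 3 were above 0 in cytochalasin D, with means of 0.37, 0.39 and 0.31. Replicates share a drug, so these correlations rest on 5 conditions and are descriptions.

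**Figure D5:**
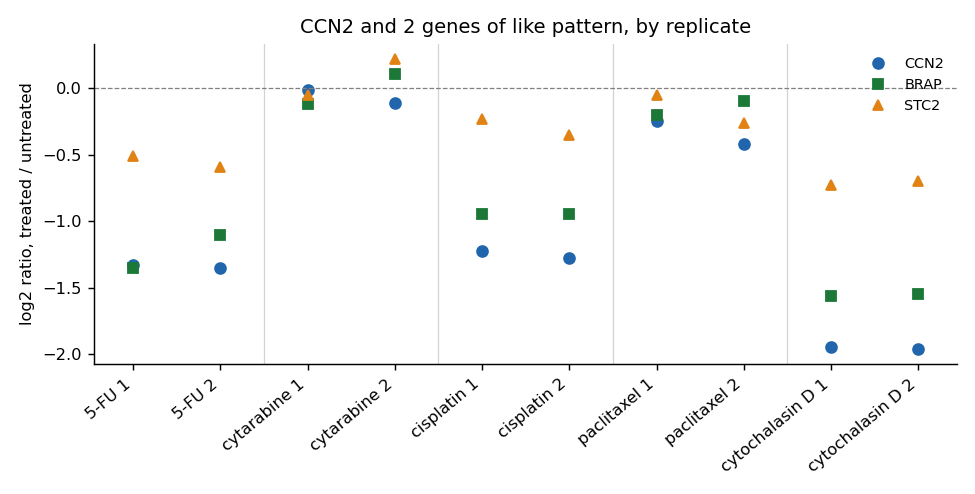
Log2 ratio by replicate (vertical axis) for CCN2, BRAP and STC2 over the 10 replicates; a 5-FU replicate is the mean of its 2 orientations. BRAP tracks CCN2 from near 0 in cytarabine to about −1.6 in cytochalasin D, and STC2 keeps the order with smaller values.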

How the data were processed

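Expression ratios of 12 two-channel arrays were analysed. The values deposited by the authors are a log ratio between both channels for each probe, read here as log2; for log base, numerator, normalization and spot filter the sources used here give nothing. Drug, dose, replicate number and channel were read per the labels. Of 8170 probes, 5930 match 1 gene, 79 several and 2161 none; probes of a gene were averaged, giving 7739 features, before median centring of every array.

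Linear models were fitted across all features with limma 3.58.1 in R 4.3.3: 5 drugs plus a channel term, on 10 replicates (a 5-FU replicate is the mean of both orientations) and 1 observation of the channel effect, weighted 4 from 2 pairs or 2 from 1. That observation leaves no residual of its own: its error is taken from the spread between replicates. Benjamini-Hochberg adjustment ran over all features of a comparison, with a threshold of 0.05. Tests set the ratio against 0 and so leave out how untreated cultures vary. An exact test on 2 against 2 replicates cannot go below p = 0.333.

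Replicate numbers were checked for pairing: differences between replicates of 2 drugs correlated at −0.0611 to 0.0904, so they do not pair. Fits were tested on simulated data. Genes named are CCN1, CCN2, up to 4 called members per list, further genes chosen by name where measured and the closest patterns; EGR1, ITGB3, CCN3 to CCN5 and other members beyond this rule were chosen after their values were seen. The members and the 10 gene lists were chosen with earlier results of these data known. Motifs were searched in RefSeq promoter windows; each gene entered once. Alternatives covered the channel term, unit of replication, centring, scale, missing values, block, moderation, log base, sign and single replicates.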

Additional observations from a re-analysis of the deposited data

Results flagged for a closer look

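CCN1 moved in opposite directions in several drugs, with every array of one drug above 0 and every array of the other below 0. Between cisplatin (0.59 and 0.63) and cytochalasin D (−1.39 and −1.46) the difference was 2.04 on the log2 scale, and limma's test of that difference passed (adjusted p = 0.00012). Between cytarabine (0.11 and 0.16) and cytochalasin D it was 1.56 (adjusted p = 0.0010). Between cisplatin and paclitaxel (−0.25 and −0.22) it was 0.85 (adjusted p = 0.0031). These differences do not depend on the channel effect, since all 8 arrays have treated RNA in channel 1, but with no channel term, in a fit that takes in the CCN1 array at −1.72 in 5-FU, none of the 3 passed (adjusted p = 0.0544 to 0.375). The signs against untreated RNA for paclitaxel and cytarabine do depend on it.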

How the results depend on the processing

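Most changes concern CCN1. With no channel term, CCN1 lost its call in cytarabine (0.14) and cisplatin (0.61) and in the pairs 5-FU minus cisplatin (−1.39), 5-FU minus cytochalasin D (0.65), cytarabine minus cisplatin (−0.48), cytarabine minus cytochalasin D (1.56), cisplatin minus paclitaxel (0.85), cisplatin minus cytochalasin D (2.04) and paclitaxel minus cytochalasin D (1.19), while CCN2 in paclitaxel passed (−0.33). With every array as its own observation, CCN1 lost cytarabine (0.84), cisplatin (1.32), cytochalasin D (−0.72), 5-FU minus cytochalasin D (0.49), cytarabine minus cisplatin (−0.48), cytarabine minus cytochalasin D (1.56), cisplatin minus paclitaxel (0.85) and paclitaxel minus cytochalasin D (1.19). With channel 2 5-FU arrays alone, CCN1 in 5-FU passed (0.48), 5-FU minus cytarabine turned to 0.34, 5-FU minus cisplatin was lost (−0.13) and 5-FU minus paclitaxel passed (0.72); with channel 1 5-FU arrays alone, 5-FU minus cytochalasin D was lost (0.49). With arrays scaled to the same spread, CCN1 in cytarabine was lost (0.39). With only the drugs compared in a fit, CCN1 in cytarabine (0.14), 5-FU minus cisplatin (−1.39), 5-FU minus cytochalasin D (0.65), cytarabine minus cytochalasin D (1.56) and paclitaxel minus cytochalasin D (1.19) were lost, and for CCN2 so were 5-FU (−1.34), cytarabine minus cytochalasin D (1.89) and paclitaxel minus cytochalasin D (1.62); these fits have fewer samples. Leaving out each replicate gave 0.42 to 0.48 for CCN1 in cytarabine, 1.15 to 1.22 for CCN1 in paclitaxel minus cytochalasin D, and 0.43 to 0.52 for CCN2 in 5-FU minus cytochalasin D, and each was lost in at least 1 of these fits. Without the 5-FU arrays and the channel term (chosen after seeing the data), CCN1 in cytarabine was lost (0.14), CCN1 in paclitaxel turned to −0.24, and CCN2 in paclitaxel passed (−0.33). Turning the sign of every array turned every direction by construction: CCN1 would be −0.45 in cytarabine, −0.92 in cisplatin and 1.11 in cytochalasin D, and CCN2 1.34 in 5-FU, 1.11 in cisplatin and 1.81 in cytochalasin D. Unless stated otherwise, the cause was not tested. With the replicate block, which the replicate numbers do not call for, no call of CCN1 or CCN2 changed; CCN2 in cytochalasin D was −1.81 (adjusted p = 0.00010) and CCN1 in cisplatin minus cytochalasin D 2.04 (adjusted p = 0.00062). Read as natural logarithms, every size grows and no call changes. CCN1 has no value on 1 array, so the fit on probes with all 12 values gave results for CCN2 only. Over all features, calls were 880 in 5-FU (0 to 1379 under the alternatives, the 0 with the 5-FU arrays alone, where limma gave 1254 at unadjusted p under 0.05), 1063 in cytarabine (412 to 1887), 801 in cisplatin (342 to 1270), 323 in paclitaxel (86 to 742) and 536 in cytochalasin D (118 to 855). Of the other results, 889 values counted as unchanged and 137 lost their call. The 889 take in correlations with CCN1 and CCN2, which have no threshold and counted as unchanged when their sign held. Among the counts, 926 stayed within 1.5 times and 185 did not.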
